A study of Homo sapiens with 21 samples.

Results

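The ubiquitin-specific protease genes, named USP followed by a number and in some cases a letter, were followed through the RNA binding sites of the protein HNRNPK. Of 778762 clusters of crosslinked reads called in 4 libraries, 3382 carried a gene name of this form, and they were chosen by that name alone. The annotation of the genome (GENCODE v44 placed on GRCh37/hg19) holds 52 such genes. A cluster was found in at least 1 library for 46 of them and in all 4 libraries for 38. USP2, USP6, USP26, USP27X, USP29 and USP51 had none.

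The cells were MDA-MB-231, a long-established line of triple-negative breast cancer, and a derivative in which KRT19, the gene of keratin 19 (K19), was knocked out with CRISPR/Cas9 (KRT19 KO). Parental and KRT19 KO cells were fed 4-thiouridine, crosslinked with ultraviolet light and separated into a cytoplasmic and a nuclear fraction, and an antibody that recognizes HNRNPK and its putative isoform HNRNPJ pulled down the bound RNA (PAR-CLIP). Each of the 4 conditions was 1 library, so differences between conditions have no replicate check and were not tested. Whether the KRT19 KO line is a single clone is not given in the sources used here, and the purity of the fractions was not measured here.

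Ubiquitin-specific proteases are cysteine proteases that take ubiquitin off other proteins and so oppose the E3 ligases that attach it. They form the largest family of deubiquitinating enzymes in human cells, and single members act on histones, DNA repair factors, cell surface receptors, signalling proteins and the proteasome's substrates. HNRNPK binds C-rich single-stranded RNA through its KH domains and takes part in splicing, export, translation and turnover of mRNA. In PAR-CLIP, a 4-thiouridine crosslinked to protein is read as a T-to-C change, and a cluster is a group of overlapping reads carrying such changes.

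Reads in clusters numbered 5551612 in the parental cytoplasm, 6216226 in the KRT19 KO cytoplasm, 3537577 in the parental nucleus and 3252800 in the KRT19 KO nucleus. KRT19 itself, the knocked-out gene, had 1 cluster of 7 reads in the parental cytoplasm, 1 of 5 reads in the KRT19 KO cytoplasm and none in the nuclei. At these levels the clusters do not check the genotype labels. Of the genes that mark this mesenchymal line, VIM, CD44, AXL, CAV1 and EGFR had between 69 and 6863 reads in each library. Of the 6 luminal breast markers, KRT8 had 117 to 208 reads and ESR1 26 to 77, GATA3, ERBB3 and FOXA1 had none to 42, and CDH1 had a single cluster of 6 reads. Cluster reads count RNA crosslinked to the protein, so more protein on an RNA and more of that RNA cannot be told apart.

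The USP genes held 886 of 201726 clusters in the parental cytoplasm, 744 of 177530 in the KRT19 KO cytoplasm, 877 of 200387 in the parental nucleus and 875 of 199119 in the KRT19 KO nucleus. Their reads numbered 15450, 15802, 15050 and 13383, which is 0.278%, 0.254%, 0.425% and 0.411% of the reads in clusters of each library. The share was thus larger in both nuclear libraries than in both cytoplasmic ones. A USP cluster held a median of 10 reads in both cytoplasmic libraries and 11 in both nuclear ones, where 5 is the smallest number the caller kept. The share of USP reads that were distinct sequences was 31.3%, 45.8%, 19.5% and 18.6%, against 30.9%, 45.6%, 20.0% and 19.0% over all clusters. A single distinct sequence made up the whole cluster in 22.2%, 9.68%, 36.5% and 35.9% of USP clusters, against 26.4%, 14.0%, 37.8% and 38.6% of all clusters. A large part of the nuclear clusters, of USP genes and of all genes alike, thus rested on copies of 1 read sequence. T-to-C changes were carried by 69.6%, 66.0%, 75.3% and 79.7% of the USP reads, beside 66.4%, 59.6%, 72.9% and 76.7% over all clusters.

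Of the 2472 USP binding sites, made by joining same-strand clusters that share 1 nt or more, 47 were found in all 4 libraries. The sequences of the 6 of these with the most reads are given first, since they are the places on USP RNA that every library marked. Each is read 5′ to 3′ on the transcript's strand and equals GRCh37 at the position given, and at most 30 bases are shown. Capitals mark matches to a C-rich motif that was searched on the transcript strand only and is described as T or A, then T, C or A, then CCC. USP37 contributes a site in the 3′UTR (exon 26, chr2:219318455-219318484, minus strand) and one in intron 10 (chr2:219387378-219387407, minus strand). USP34 contributes sites in intron 27 (chr2:61537958-61537987, minus strand) and intron 74 (chr2:61431016-61431042, minus strand). The others lie in intron 1 of USP10 (chr16:84746959-84746988, plus strand) and intron 4 of USP12 (chr13:27668247-27668274, minus strand).
USP37 3′UTR: cttaggtaATCCCaaaaactaacaaataac
USP37 intron 10: catttATCCCCaaattaataaaaaaattta
USP34 intron 27: tttccatatactactcatccactttAACCC
USP34 intron 74: tcttctacTTCCCttaaattatattcc
USP10 intron 1: atcttcttacacccacttTACCCaccttta
USP12 intron 4: ctccctcctcatcaaaatctcacccaag

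The motif occurs in 5 of these 6 stretches, and the USP12 stretch has CCC without the preceding bases that the motif asks for. In the order parental cytoplasm, KRT19 KO cytoplasm, parental nucleus and KRT19 KO nucleus, which is kept for every run of 4 values here, the USP37 3′UTR site had 43, 248, 5 and 30 reads. The intron 10 site of USP37 had 55, 63, 48 and 67 reads, and the intron 27 site of USP34 had 76, 47, 84 and 30. In these introns both fractions gave reads of the same order, whereas most reads of the USP37 3′UTR site came from the KRT19 KO cytoplasm. The intron 74 site of USP34 had 74, 21, 53 and 37 reads, the USP10 site 68, 27, 28 and 39, and the USP12 site 44, 49, 57 and 8.

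Exonic sites with many reads are shown next, 1 for each of 7 genes, and each is the exonic site of its gene with the most reads. They were chosen after their values were seen. The USP21 site lies in the 3′UTR (exon 14, chr1:161135387-161135416, plus strand), and the USP1 site in the coding part of exon 9 (chr1:62916595-62916624, plus strand). The USP3 site overlaps the stop codon in exon 15 (chr15:63883021-63883062, plus strand). The stretch shown for it (chr15:63883025-63883054) is labelled by the site and lies almost wholly in the 3′UTR. The USP46 site (exon 9, chr4:53461491-53461520, minus strand), the USP10 site (exon 14, chr16:84813079-84813108, plus strand), the USP36 site (exon 21, chr17:76793162-76793191, minus strand) and the USP22 site (exon 13, chr17:20905672-20905701, minus strand) are all in 3′UTRs.
USP21 3′UTR: TACCCttccacctggaggctcccttgtctc
USP1 coding: TTCCCCttctacatctcctacttctactcc
USP3 stop codon: atacctcctccaaatcatcattcaccaacc
USP46 3′UTR: taattttTTCCCtcttccttctcaataaat
USP10 3′UTR: tttaatccatcacacttttcTTCCCTACCC
USP36 3′UTR: catttattttactacttaatacaaaacatt
USP22 3′UTR: ttcttATCCCtctcccgctcctttttccac

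C and T together made up 90.0% of the bases of the USP22 stretch, 86.7% of the USP1 stretch, 80.0% of the USP10 stretch and 60.0% of the USP36 stretch. The USP36 and USP3 stretches have no match to the motif. Over all USP clusters the motif was present in 28.2% (95% Wilson interval 25.4 to 31.3), 29.0% (25.9 to 32.4), 28.6% (25.7 to 31.7) and 29.5% (26.6 to 32.6), and over all clusters of the libraries in 29.8%, 30.1%, 32.9% and 33.6%. The intervals and the floors used here cover counting error only, since reads are not independent molecules. USP clusters were rich in T, which made up 37.8%, 35.1%, 36.6% and 36.4% of their bases, and poor in G, at 6.28%, 6.42%, 7.09% and 5.67%. C made up 25.1% to 26.9%. Over all clusters T made up 36.0%, 33.9%, 34.0% and 34.4%, G 6.96%, 7.22%, 9.06% and 6.78%, and C 25.8% to 28.9%. High T and low G were thus shared by the clusters of all genes. RNase T1, which cuts after G, was used to trim the RNA, and its part in the low G content was not tested.

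Per gene, reads are given per 1000000 reads in clusters of the library (rpm). USP34, a very large protease that acts in Wnt signalling, had the most clusters, 443 over the 4 libraries, and 383, 277, 784 and 624 rpm. USP15, which acts on TGF-β receptor signalling, followed with 223 clusters and 225, 136, 241 and 236 rpm. USP47, which deubiquitinates the base excision repair polymerase POLB, had 202 clusters and 102, 109, 159 and 305 rpm. USP34 was thus at its highest in the parental nucleus and USP47 in the KRT19 KO nucleus, while the 4 USP15 values lay close together apart from a lower one in the KRT19 KO cytoplasm. USP24 had 179 clusters and 126, 93.3, 206 and 212 rpm, and USP10, which deubiquitinates p53, had 163 clusters and 154, 95.2, 271 and 256 rpm. USP9X, an X-linked protease with many substrates, had 159 clusters and 94.2, 92.3, 107 and 168 rpm. All these genes had more rpm in each nucleus than in the cytoplasm of the same line. Together the 6 genes held 1369 clusters, 40.5% of the USP clusters and 38.8% of the USP reads.

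**Figure D1:**
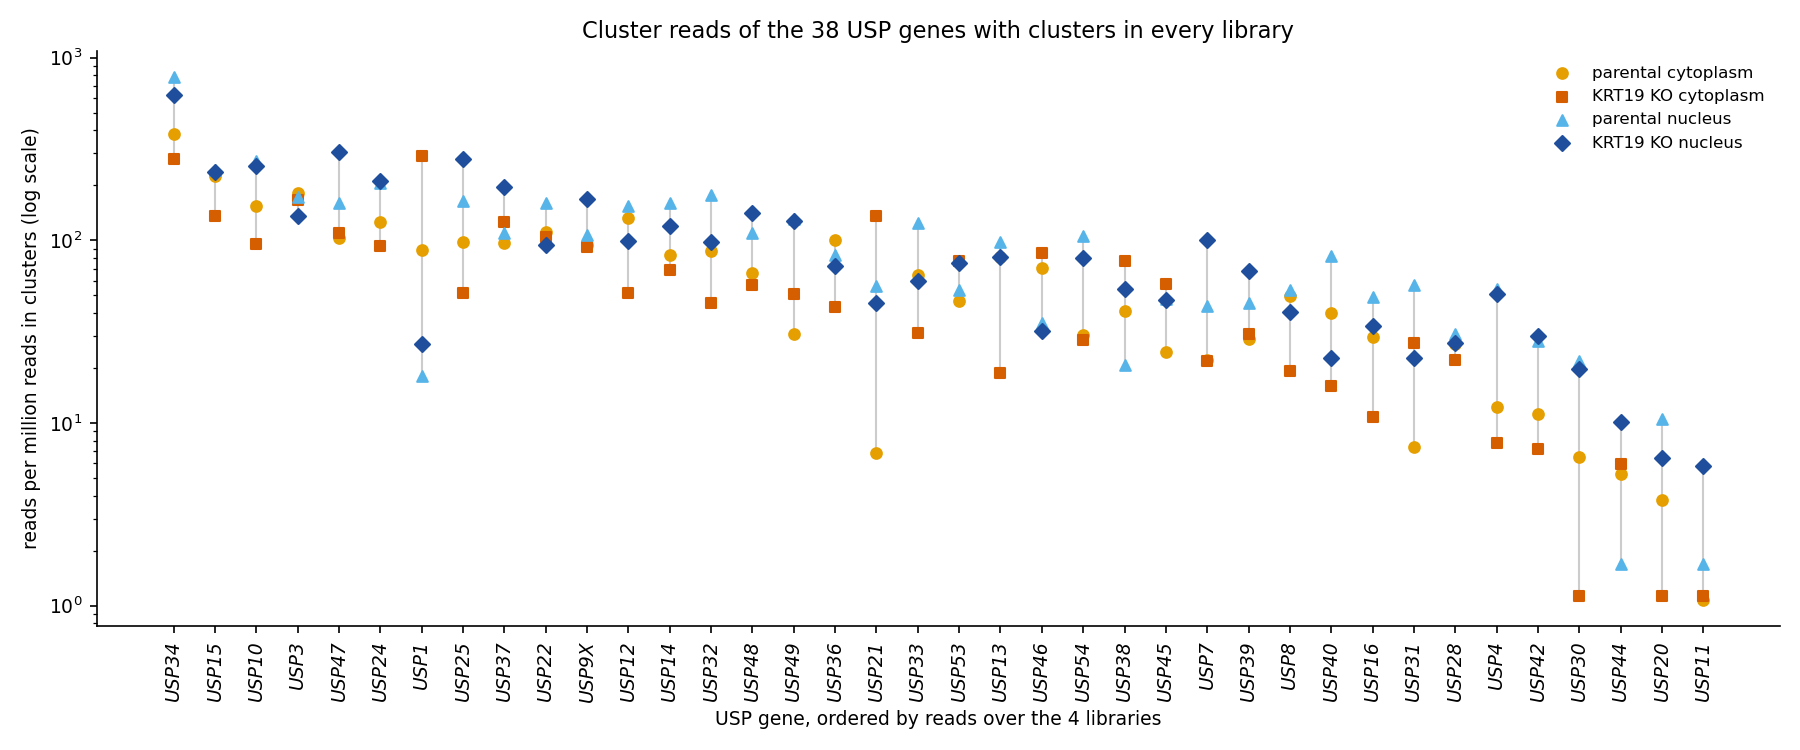
Cluster reads (rpm, log axis) of the 38 USP genes with clusters in every library, with 1 point per library and a line joining the 4 points of a gene. USP34 is the highest gene in both nuclei and in the parental cytoplasm, at 383 to 784 rpm, and USP1 is the highest in the KRT19 KO cytoplasm at 291 rpm.

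Long genes had more clusters. Over the 46 genes the rank correlation between the span of the gene and its number of clusters was 0.709 (Spearman's rho, a description across genes, which share libraries and depth). Counted per length, the order changed. The mean number of clusters per library and 10 kb of gene had a median of 1.72 and was highest for USP1 at 7.42, a gene of 15.5 kb (chr1:62901968-62917475, plus strand), and for USP21 at 6.77, a gene of 6.27 kb (chr1:161129240-161135513, plus strand). USP22, the deubiquitinase of the SAGA coactivator, followed at 5.94, USP10 at 5.10 and USP47 at 4.19. USP34, which spans 284 kb (chr2:61414598-61698222, minus strand), had 3.90 and USP15 had 3.55. At the other end, USP5, USP9Y, USP18, USP35 and USP41 had clusters in 1 library only, with 1 to 3 clusters and 6 to 22 reads each.

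Most USP clusters lay in introns. The intronic class took 757 clusters (85.4%) in the parental cytoplasm, 561 (75.4%) in the KRT19 KO cytoplasm, 813 (92.7%) in the parental nucleus and 811 (92.7%) in the KRT19 KO nucleus. Over all annotated clusters the intronic shares were 74.4%, 63.4%, 83.7% and 82.1%, below the USP share in each library. The 3′UTR class held 76 clusters (8.58%, 95% Wilson interval 6.91 to 10.6), 106 (14.2%, 11.9 to 16.9), 43 (4.90%, 3.66 to 6.54) and 31 (3.54%, 2.51 to 4.98). The corresponding shares over all annotated clusters were 13.0%, 20.4%, 4.80% and 5.37%. Coding clusters numbered 43, 63, 17 and 21, and 5′UTR clusters 5, 5, 1 and 6. By gene, 45 USP genes had an intronic cluster, 34 a 3′UTR cluster, 30 a coding cluster and 8 a 5′UTR cluster.

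By reads the libraries differed more than by clusters. Exonic clusters, which are those of the 5′UTR, coding, stop codon and 3′UTR classes, held 23.0% of the USP reads in the parental cytoplasm and 46.2% in the KRT19 KO cytoplasm, against 8.84% and 6.96% in the nuclei. Over all annotated reads the exonic shares were 41.1%, 63.6%, 10.0% and 13.1%. The USP genes therefore showed the same order of the cytoplasmic libraries as all genes, with a smaller exonic share in each library. In rpm, USP exonic reads were 639, 1174, 376 and 286 rpm and USP intronic reads 2111, 1347, 3868 and 3806 rpm. Among 30 genes with at least 50 reads in each cytoplasmic library, the exonic share was higher in KRT19 KO cytoplasm than in parental cytoplasm for 24, lower for 5 and equal for 1. Among 30 genes with at least 50 reads in every library, the exonic share was highest in the KRT19 KO cytoplasm for 22, and both cytoplasms stood above both nuclei for 19. Genes outside the family were not counted in this way, so these gene counts have no background. Since the share over all annotated reads also rose, from 41.1% to 63.6% between the cytoplasms, the counts do not set the family apart.

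**Figure D2:**
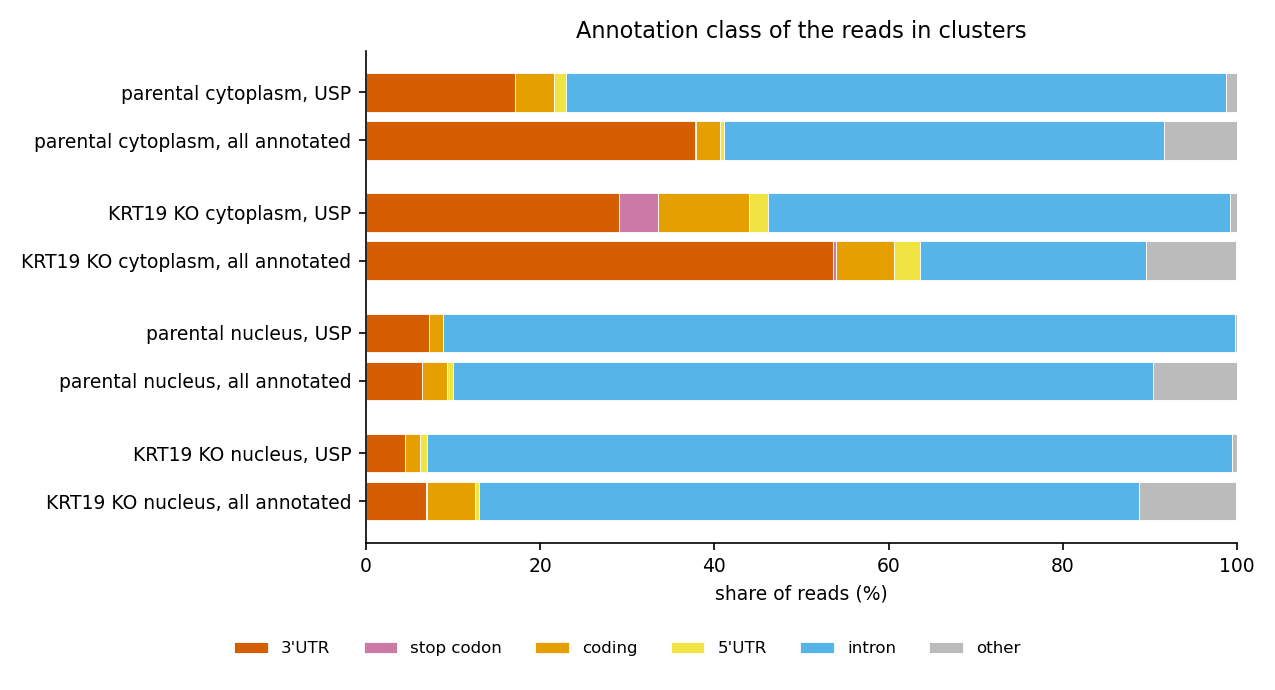
Share of reads (percent, horizontal axis) by annotation class as stacked bars, for the USP genes and for all annotated clusters of each library. The exonic classes of the USP genes take 46.2% of the reads in the KRT19 KO cytoplasm, 23.0% in the parental cytoplasm, 8.84% in the parental nucleus and 6.96% in the KRT19 KO nucleus.

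The 3′UTR reads were held by few genes. USP21, a deubiquitinase of histone H2A and of signalling adaptors, had 1060 over the 4 libraries, USP46 had 888, USP22 had 672, USP36, a mainly nucleolar protease, had 625, USP10 had 573, and USP1 and USP38 had 566 each. USP3 is not in this order because the annotation put its stop codon site in the 3′UTR class in parental and in the stop codon class in KRT19 KO cytoplasm, and with all 921 reads of that site it would stand second. The 6 genes of this list without USP38 held 4384 reads, 49.1% of all USP 3′UTR reads. Per kb of 3′UTR and as a mean over libraries, USP21 had 186 rpm, USP10 42.2, USP1 29.2, USP36 14.4, USP22 8.92, USP38 7.32 and USP46 5.72. The short 3′UTR of USP21 (276 nt) was thus the most densely covered of these, and the long one of USP46 (6680 nt) the least. In the canonical transcripts, 178 sites lay in the 3′UTRs of 33 USP genes, from 16 to 6220 nt after the stop codon with a median of 1409 nt. Their median position was 48.1% of the way along the 3′UTR, with 50 sites in the first 25% and 40 in the last 25%. Of these sites 116 were found in cytoplasm only, 27 in nucleus only and 35 in both. The same split over the 3′UTR sites of all genes was not counted. Over all annotated clusters the 3′UTR class held 21545, 28448, 7738 and 8057 clusters, so it was also larger in the cytoplasms. USP22 had the most at 20, before USP49 with 17, USP38 with 16, USP37 with 13 and USP46 with 12.

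Of the 2472 USP sites, 1816 (73.5%) were found in 1 library, 449 (18.2%) in 2, 160 (6.47%) in 3 and 47 (1.90%) in all 4. Over the sites of all annotated clusters these shares were 75.4%, 16.7%, 6.05% and 1.89%. The 47 sites in all libraries belonged to 23 genes, and 41 of them were intronic and 3 in 3′UTRs. Sites found in the cytoplasm only numbered 917, of which 203 were exonic (22.1%, 95% Wilson interval 19.6 to 24.9). Sites found in the nucleus only numbered 1071, of which 51 were exonic (4.76%, 3.64 to 6.21), and of 484 sites found in both fractions 53 were exonic (11.0%, 8.47 to 14.0). Over the sites of all annotated clusters, 39.2% were in the cytoplasm only, 43.0% in the nucleus only and 17.8% in both. Their exonic shares in that order were 24.5%, 5.60% and 12.5%. The USP sites showed the same order of exonic shares, with values close to these. Of 115 sites with at least 50 cytoplasmic reads, 74 were called in both cytoplasms, 20 in the parental one only and 21 in the KRT19 KO one only, or 64.3%, 17.4% and 18.3%. Over all annotated sites of that depth the shares were 69.4%, 12.6% and 17.96%. Among the 40 exonic sites of these, 24 were in both, 7 in parental only and 9 in KRT19 KO only. These were 60.0%, 17.5% and 22.5%, beside 65.0%, 9.72% and 25.2% over all annotated exonic sites of that depth. A site missing from a library means that no cluster of at least 5 reads was called there.

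In the cytoplasm, the comparison of KRT19 KO with parental cells asks which RNAs held a larger or smaller share of the cluster reads when K19 was absent. The values are relative to each library and do not measure how much HNRNPK was on an RNA. The paper reports a lower level of cytoplasmic HNRNPK protein in KRT19 KO cells, with its total level unchanged. USP21 stood highest, with 38 reads in parental and 848 in KRT19 KO cytoplasm, or 6.84 and 136 rpm. USP31, USP1 and USP45 were also over 2-fold higher, and USP13, USP16, USP12, USP8, USP40, USP36 and USP33 were over 2-fold lower. A gene was compared where its reads in both libraries together reached 50, with a floor of 5 reads where no cluster was called. Of 35 USP genes compared, 4 were at least 2-fold higher, where 20.6% of all genes compared were, and 7 were at least 2-fold lower, where 22.4% of all were. The median log2 ratio of the USP genes was -0.23 and that of all genes -0.08. The 4 of 35 are a smaller share than that background, and the 7 of 35 are close to theirs.

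The USP21 ratio was 19.9 (95% exact counting interval 14.4 to 28.4) and most of its reads came from a single place. Its 3′UTR site, centred 154 nt after the stop codon and 122 nt before the transcript's end (distances from a stop codon are to a site's centre throughout), had 766 reads in the KRT19 KO cytoplasm and no cluster in the parental cytoplasm, although 180 and 89 reads were found there in the nuclei. T-to-C changes were carried by 45.6% of its reads in the KRT19 KO cytoplasm, 60.0% in the parental nucleus and 53.9% in the KRT19 KO nucleus. Without that site USP21 had 38 against 82 reads, a ratio of 1.93 (1.30 to 2.91). Its intronic clusters were also higher, with 15 and 70 reads, a ratio of 4.17 (2.36 to 7.84), and a site in intron 11 called in all libraries had 10, 57, 11 and 30 reads.

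USP1, which deubiquitinates FANCD2 and PCNA together with its partner WDR48, had 493 reads in parental and 1807 in KRT19 KO cytoplasm, and 64 and 88 in the nuclei. The cytoplasmic ratio was 3.27 (2.96 to 3.62). Here several places were higher in KRT19 KO. The coding site in exon 9 had 265 and 703 reads, the 5′UTR site in exon 2 (chr1:62905482-62905518) 86 and 136, and the 3′UTR site 250 nt after the stop codon (chr1:62916879-62916925) 71 and 151. A site in intron 8 had no cluster in parental and 197 reads in KRT19 KO cytoplasm. Without its coding site USP1 still differed 4.32-fold (3.75 to 5.01). The KRT19 KO cytoplasm had 21 USP1 clusters and the parental cytoplasm 12. Exonic clusters held 92.7% of the USP1 reads in parental and 78.6% in KRT19 KO cytoplasm, against 18.8% and 23.9% in the nuclei. USP1 was thus one of the 5 genes in which the exonic share was lower in the KRT19 KO cytoplasm, and its intronic reads went from 36 to 354, a ratio of 8.78 (6.22 to 12.7).

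**Figure D3:**
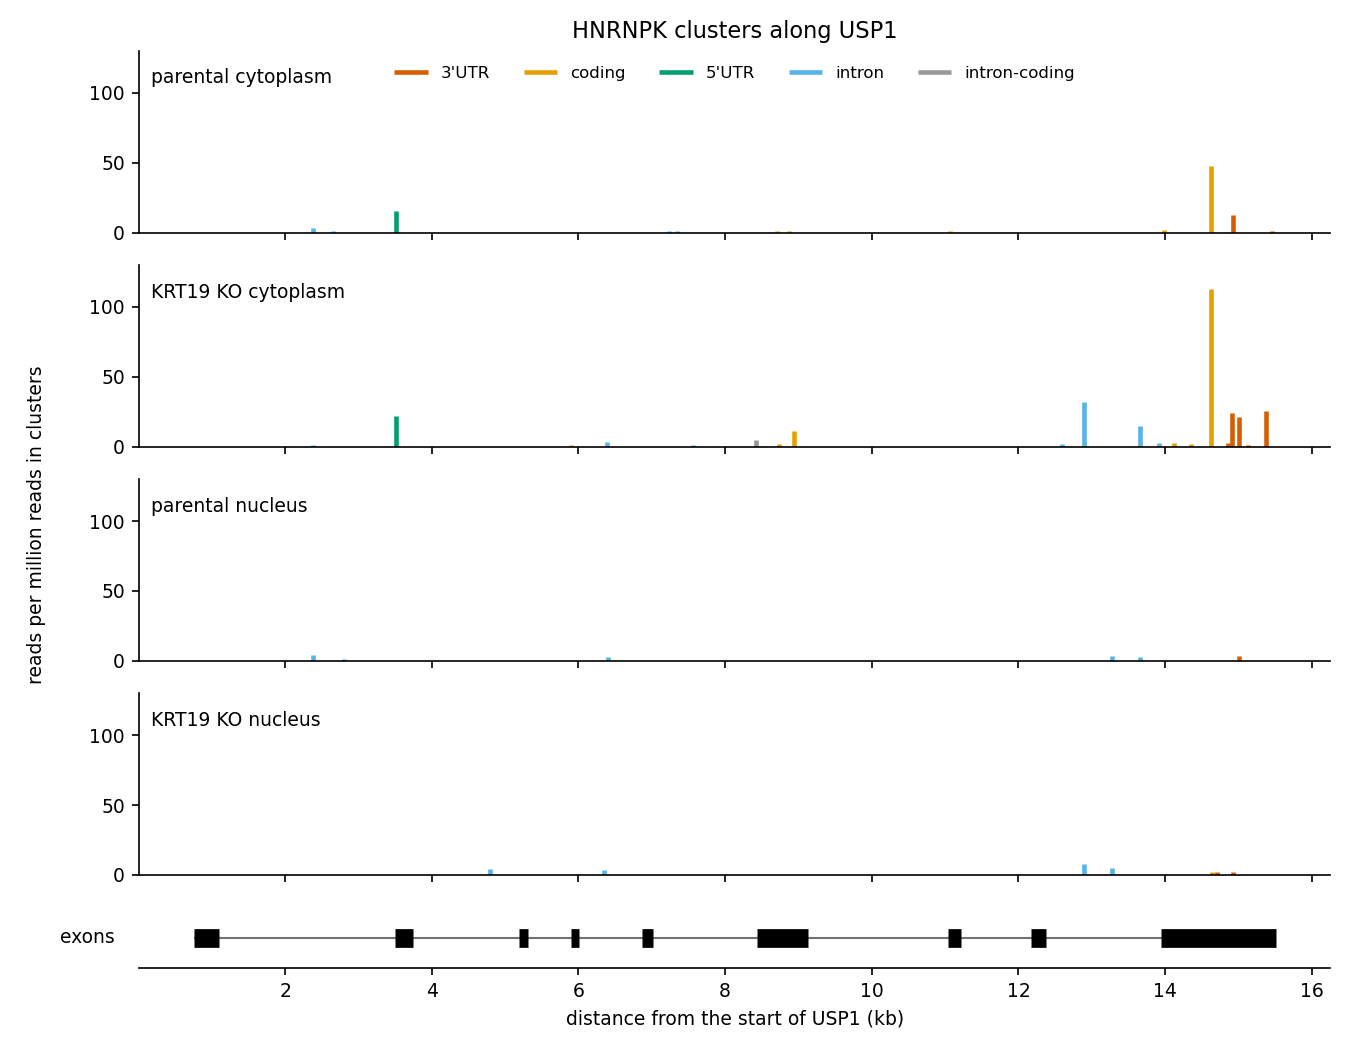
Clusters along USP1 in the 4 libraries, with the distance from the start of the gene (kb) on the horizontal axis, rpm on the vertical axis and exons drawn as boxes. The coding site at 14.6 kb reaches 47.7 rpm in the parental and 113 rpm in the KRT19 KO cytoplasm, and an intronic site at 12.9 kb reaches 31.7 rpm in the KRT19 KO cytoplasm.

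USP31, described as an NF-κB regulator, had 41 and 170 cytoplasmic reads, a ratio of 3.70 (2.62 to 5.34), and 2.66 (1.85 to 3.88) without its most covered site. USP45, which acts on the repair nuclease ERCC1, had 135 and 358 reads, a ratio of 2.37 (1.94 to 2.91), and 1.54 (1.24 to 1.92) without a 3′UTR site that had 125 reads in KRT19 KO and none in parental cytoplasm. USP38 was the fifth highest at 1.89 (1.61 to 2.22), with 227 and 480 reads. So USP1 and USP31 kept a ratio over 2 when the most covered site of each gene was left out of both libraries, and USP21 and USP45 did not.

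On the lower side, USP13, which acts in autophagy and at the endoplasmic reticulum, had 448 parental and 116 KRT19 KO cytoplasmic reads, a ratio of 0.231 (0.187 to 0.284). A 3′UTR site 4523 nt after its stop codon had 155 reads in parental and none in KRT19 KO cytoplasm, and without it the ratio was 0.354 (0.283 to 0.440). USP16, a histone H2A deubiquitinase, had a ratio of 0.367 (0.272 to 0.491). USP12, a partner of WDR48 like USP1 and USP46, had 739 and 319 reads and a ratio of 0.386 (0.337 to 0.440). Its 3′UTR site 1270 nt after the stop codon had 184 parental reads and no KRT19 KO cytoplasmic cluster, and the ratio without it was 0.513 (0.446 to 0.590). USP8, which deubiquitinates EGFR on endosomes, had a ratio of 0.390 (0.312 to 0.485) and USP40 one of 0.400 (0.312 to 0.509). Without their most covered sites USP16 and USP40 stayed below 0.5, and USP12 and USP8, at 0.533 (0.422 to 0.672), did not.

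USP36 and USP33 completed the lower group, at 0.433 (0.373 to 0.502) and 0.485 (0.405 to 0.580). The USP36 3′UTR site 808 nt after the stop codon had 236 reads in the parental cytoplasm, none in the KRT19 KO cytoplasm and 64 and 40 in the nuclei, and the gene's ratio without it was 0.753 (0.638 to 0.889). A neighbouring USP36 site 1736 nt after the stop codon was nearly even, with 57 and 83 reads. USP14, a protease that sits on the proteasome, had a total of 0.827 that hid an exchange. A 3′UTR site 3101 nt after its stop codon had 205 reads in KRT19 KO and none in parental cytoplasm, and its neighbour at 3170 nt had 115 in parental and none in KRT19 KO cytoplasm. USP14 was named after its values were seen.

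Exonic and intronic reads differed in opposite directions between the cytoplasms. In exonic clusters 14 of 27 USP genes were at least 2-fold higher in KRT19 KO cytoplasm (43.3% of all genes compared) and 4 at least 2-fold lower (11.0% of all), with a median log2 ratio of 1.10 beside 0.77 over all genes. In intronic clusters 2 of 34 were higher (7.30% of all) and 11 were lower (39.3% of all), with a median of -0.60 beside -0.74. The USP genes thus followed the general pattern of these libraries in both classes. USP3, a histone H2A deubiquitinase, shows both at once. Its exonic reads were 236 in parental and 692 in KRT19 KO cytoplasm, a ratio of 2.62 (2.26 to 3.05), and its intronic reads 757 and 288, a ratio of 0.340 (0.296 to 0.390), while the gene's total had a ratio of 0.921. The exonic reads came almost wholly from the site at the stop codon (chr15:63883021-63883062), with 229 and 692 cytoplasmic reads and no nuclear cluster. USP15 likewise had 21 and 158 exonic reads, a ratio of 6.72 (4.25 to 11.2), and 1228 and 687 intronic reads, a ratio of 0.4996 (0.454 to 0.549).

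Other exonic ratios above 2 were 10.5 (4.27 to 33.7) for USP33 on 5 and 59 reads, 8.99 (5.19 to 16.9) for USP31, 6.63 (4.09 to 11.3) for USP49 on 19 and 141 reads, and 3.68 (2.70 to 5.10) for USP45. USP9X, at 3.63 (2.62 to 5.13) on 46 and 187 reads, and USP53, at 3.41 (2.64 to 4.44) on 77 and 294 reads, followed. The exonic genes below 0.5 were USP13 at 0.224, USP36 at 0.280, USP8 at 0.447 and USP12 at 0.459, and all 4 also had low totals. Of the 8 genes with a 5′UTR cluster, USP1 and USP53, a member found at tight junctions, had the best covered sites. The USP53 site in exon 5 had 61, 185, none and 25 reads. USP25, USP37, USP38, USP40, USP48 and USP54 were the other genes of this class.

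**Figure D4:**
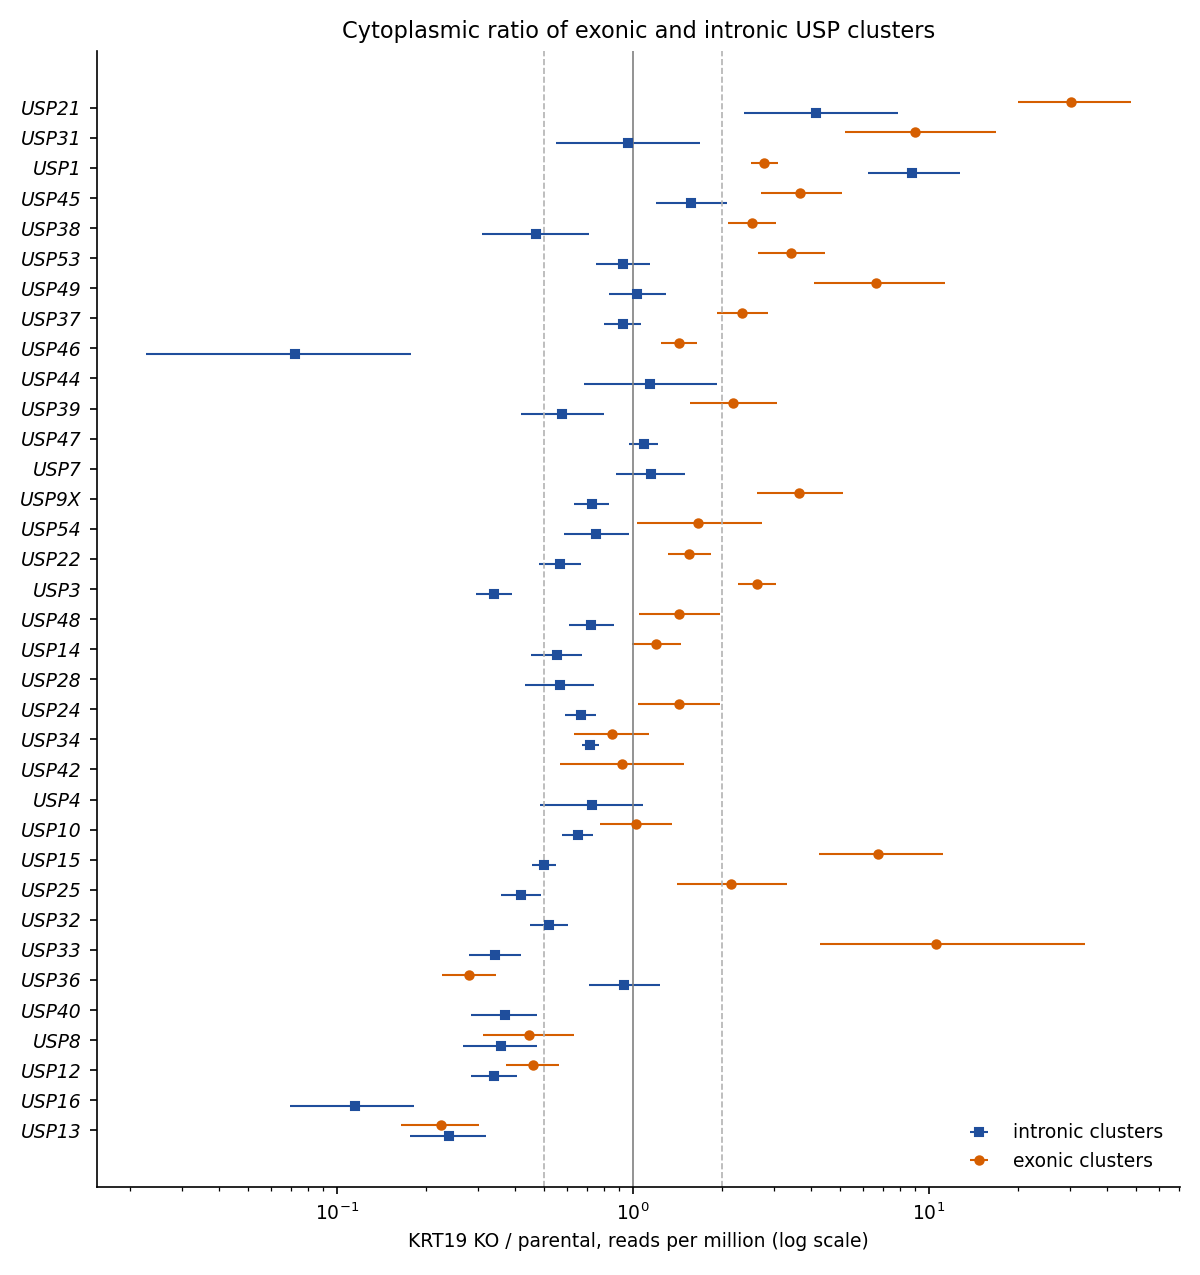
Ratio of KRT19 KO to parental cytoplasmic rpm (log axis) in the exonic and the intronic clusters of each USP gene, ordered by the ratio of the gene as a whole, with 95% exact counting intervals as bars and dashed lines at 0.5 and 2. The exonic point lies to the right of the intronic one for USP3 (2.62 and 0.340) and USP15 (6.72 and 0.4996), and to its left for USP1 (2.78 and 8.78) and USP36, whose exonic ratio is 0.280.

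In the nucleus 36 USP genes were compared between the lines. Of these, 2 were at least 2-fold higher in KRT19 KO (14.4% of all genes compared) and 3 at least 2-fold lower (18.2% of all), with a median log2 ratio of -0.15 beside -0.10 over all genes. Centred on the median of all genes, the split was 3 higher and 2 lower. USP38 and USP7, the protease of MDM2 and p53, were higher at 2.64 (1.997 to 3.51) and 2.29 (1.88 to 2.79). USP7 had 22.0, 21.9, 43.8 and 100.2 rpm, so that its 2 cytoplasmic levels were nearly equal. USP31 at 0.398 (0.301 to 0.522), USP33 at 0.481 (0.404 to 0.570) and USP40 at 0.278 (0.213 to 0.361) were lower. USP33 and USP40 were below 0.5 in both fractions, whereas USP31 was 3.70 in the cytoplasm and 0.398 in the nucleus. Without the most covered site of each gene, USP38 had a ratio of 1.92 (1.43 to 2.60), USP7 1.75 (1.42 to 2.15), USP31 0.537 (0.401 to 0.713), USP33 0.604 (0.505 to 0.722) and USP40 0.304 (0.231 to 0.394).

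Exonic nuclear reads were few, and 12 USP genes could be compared, of which 2 were higher in KRT19 KO (27.0% of all) and 4 lower (24.3% of all), with a median of -0.69 beside 0.08. USP38 had 70 exonic reads in KRT19 KO and no cluster in the parental nucleus, and USP22 had 84 in parental and none in KRT19 KO. In introns 35 were compared, with 2 higher (12.7% of all), 3 lower (18.7% of all) and a median of -0.02 beside -0.15. The most covered 3′UTR site of USP10 in the nuclei (chr16:84813076-84813113) had 251 reads in parental and 103 in KRT19 KO and no cytoplasmic cluster. Another 3′UTR site of the same gene, 184 nt after the stop codon (chr16:84812858-84812886), had 87 and 89 reads in the cytoplasms and no nuclear cluster. These neighbouring USP10 sites, in 1 exon, were thus each called in 1 fraction of both lines.

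Between the fractions of a line, most USP genes had a higher rpm in the nucleus. In parental cells 2 of 37 genes were at least 2-fold higher in cytoplasm (18.8% of all genes compared) and 12 at least 2-fold lower (34.8% of all), with a median log2 ratio of -0.74 beside -0.54. In KRT19 KO cells 3 of 36 were higher (24.4% of all) and 17 lower (41.2% of all), with a median of -0.95 beside -0.62. Centred on the median of all genes, the splits were 3 higher and 7 lower in parental cells and 4 higher and 7 lower in KRT19 KO cells. USP1 and USP46 were on the cytoplasmic side in both lines. For USP1 the ratio was 4.91 (3.78 to 6.47) in the parental line and 10.7 (8.67 to 13.5) in the KRT19 KO line. USP46, another partner of WDR48, had 70.6, 85.3, 35.1 and 31.7 rpm, ratios of 2.01 (1.64 to 2.49) and 2.69 (2.18 to 3.36).

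The cytoplasmic reads of USP46 lay mainly in 3′UTR sites, with 169, 301, 10 and no reads 2301 nt after the stop codon and 117, 173, 5 and none 1713 nt after it. Without the first of these sites the USP46 ratios were 1.25 (0.990 to 1.58) and 1.16 (0.918 to 1.48). USP1 without its coding site kept a ratio of 2.27 (1.71 to 3.04) in the parental line and 7.13 (5.69 to 9.05) in the KRT19 KO line. USP38 was the third highest in parental cells at 1.98 (1.52 to 2.62), and USP21 the second highest in KRT19 KO cells at 3.02 (2.53 to 3.62). USP21 was also among the lowest in parental cells, at 0.122 (0.0836 to 0.173), and without its 3′UTR site the ratios were 1.27 (0.717 to 2.34) and 0.740 (0.522 to 1.05). The opposite positions of USP21 in the lines thus rested on that site, and the difference between the lines was not tested.

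The genes most on the nuclear side in parental cells were USP21, USP31 at 0.129 (0.0901 to 0.182) and USP4 at 0.226 (0.169 to 0.299). In KRT19 KO cells they were USP30, a protease of the mitochondrial outer membrane, at 0.0572 (0.0221 to 0.125), USP4 at 0.151 (0.107 to 0.210) and USP25 at 0.185 (0.162 to 0.210). USP25 had a single intron 8 site with 166 reads that was called in the KRT19 KO nucleus only, and kept a ratio of 0.226 (0.198 to 0.258) without it.

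**Figure D5:**
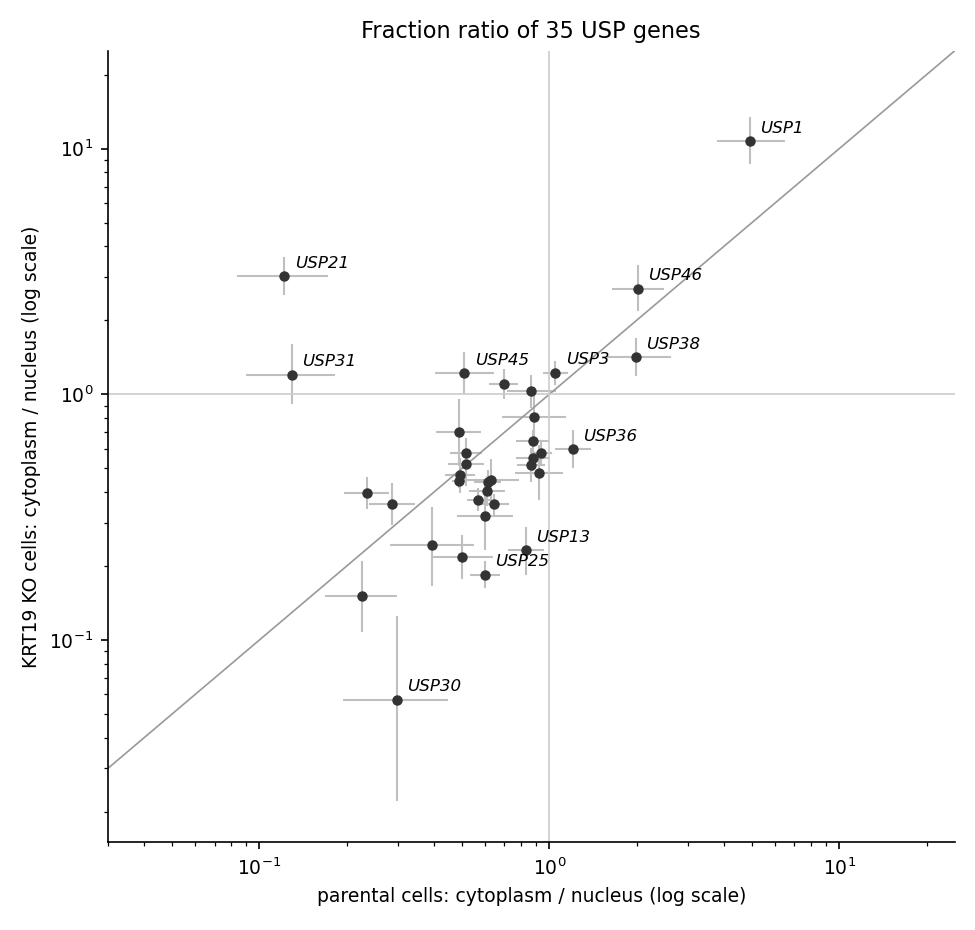
Ratio of cytoplasmic to nuclear rpm of the 35 USP genes compared in both lines, in parental cells (horizontal) and KRT19 KO cells (vertical), on log axes with 95% exact counting intervals as bars and a diagonal of equal ratios. USP1 lies in the upper right at 4.91 and 10.7, USP21 in the upper left at 0.122 and 3.02, and USP30 lowest at 0.298 and 0.0572.

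Split by class, the fractions differed in opposite directions. In exonic clusters 12 of 22 USP genes were higher in parental cytoplasm (72.0% of all genes compared) and 3 lower (8.27% of all), with a median of 1.13 beside 2.42, and the lower ones were USP10, USP21 and USP49. In KRT19 KO cells 19 of 27 were higher (80.2% of all) and none lower (5.07% of all), with a median of 2.18 beside 2.75. In intronic clusters none of 35 was higher in parental cytoplasm (4.80% of all) and 15 were lower (51.0% of all), with a median of -0.95 beside -1.02. In KRT19 KO cells 1 of 36, USP1, was higher (3.28% of all) and 29 were lower (74.7% of all), with a median of -1.54 beside -1.67. The intronic medians of the USP genes lay close to those of all genes, and the exonic ones lay below them.

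The same values were read by the roles of the genes, in groups that overlap. Beside the counts of these groups between the cytoplasms stand the shares over all genes compared, 20.6% higher and 22.4% lower, with a median log2 ratio of -0.08. Of the proteases that act on TGF-β and Wnt signalling, all 5 had clusters, and USP34, USP15, USP9X and USP4 gave the group its 716, 514, 1188 and 1085 rpm. None of 4 compared was beyond 2-fold between the cytoplasms, and their median log2 ratio was -0.57. The proteases of p53 and MDM2 had clusters for 6 of 8 genes, led by USP10, USP24, USP7 and USP4, with 330, 225, 604 and 649 rpm. None of 5 was beyond 2-fold between the cytoplasms, and in the fraction comparison 2 of 5 were at least 2-fold lower in parental cytoplasm, where 34.8% of all genes were, and all 5 in KRT19 KO cytoplasm, where 41.2% of all genes were. Centred on the median of all genes, USP4 was past 2-fold in parental cells, and USP4, USP7 and USP42 were in KRT19 KO cells.

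Of the 12 role groups, the genes of DNA repair and replication had the highest exonic rpm in the KRT19 KO cytoplasm. All 7 had clusters, led by USP3, USP47, USP1 and USP48, and their exonic reads were 149, 398, 13.3 and 26.7 rpm. In the KRT19 KO cytoplasm USP1 gave 229 and USP3 111 of the 398 rpm, so this rank rested mainly on 2 genes. USP1 also counts among the partners of WDR48 and USP3 among the histone deubiquitinases. Of 6 compared between the cytoplasms, 2 were higher, USP1 and USP45, and none lower, with a median log2 ratio of -0.02. The histone deubiquitinases, led by USP3, USP22, USP49 and USP21, had clusters for 6 of 8 genes, with 1 higher (USP21) and 1 lower (USP16) of 6 and a median of 0.05. The 3 partners of WDR48 went different ways between the cytoplasms, USP1 higher, USP12 lower and USP46 at 1.21. Of them 2, USP1 and USP46, were at least 2-fold higher in cytoplasm than nucleus in both lines. Over all genes compared, 18.8% were in parental and 24.4% in KRT19 KO cells. Without its most covered site USP46 was at 1.25 and 1.16, with intervals that include 1, while USP1 stayed above 2.

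Of the 7 cell cycle proteases, led by USP37, USP9X, USP33 and USP13, all had clusters and 2 of 5 were lower, USP33 and USP13. Of the 6 that act on receptors and endosomes, 5 had clusters, led by USP10, USP32, USP33 and USP8, and 2 of 4 were lower, USP33 and USP8, with a median of -0.99, and USP8 was at 0.533 without its most covered site. The innate immune and NF-κB group had clusters for all 6, led by USP25, USP14, USP21 and USP31, with 2 of 4 higher, USP21 and USP31, and a median of 0.81, and of these USP21 was at 1.93 without its 3′UTR site. The 3 proteases of the proteasome and of free ubiquitin had 1 lower of 2, USP13, and those linked to mitochondria had 1 lower of 1, USP36, whose protein is mainly nucleolar. The members listed as atypical or inactive included USP39, a spliceosome component, USP53, USP54 and USP50. None of 3 compared was beyond 2-fold, with a median of 0.09. Among the rest (USP26, USP38, USP40, USP43 and USP9Y), 4 had clusters and 1 of 2, USP40, was lower.

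Genes around the family were counted in the same way between the cytoplasms, where 20.6% of all genes compared were higher and 22.4% lower with a median log2 ratio of -0.08. Of 31 genes of other deubiquitinase families, 30 had clusters, and 8 of 27 were higher and 4 lower with a median log2 ratio of 0.19. VCPIP1, which acts with the ATPase VCP, had 1497, 3834, 119 and 34 reads, and MYSM1, a histone H2A deubiquitinase, 1230, 3267, 449 and 379. Of 16 partners of USP proteins all had clusters, with 2 of 16 higher and 3 lower and a median of -0.22. MDM2, the E3 ligase of p53, had 2575, 2941, 624 and 510 reads, and GMPS, a partner of USP7, 1232, 1462, 1466 and 832. Of 4 genes with a related fold or name, USPL1, with 245, 243, 514 and 268 reads, and USP6NL, a GTPase-activating protein with 322, 162, 164 and 221, had the most, and none was higher and 1 lower. Of 7 genes of ubiquitin and its activating enzymes 6 had clusters, and of 4 compared 1 was higher and 2 lower, with 359, 538, 454 and 727 reads on UBA6, an activating enzyme. None of these lists was tested.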

How the data were processed

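PAR-CLIP was carried out on the cytoplasm and nucleus of parental and KRT19 KO MDA-MB-231 cells, with 1 library per condition. According to the study's methods, reads were demultiplexed, collapsed to remove duplicates, aligned to hg19 and grouped into clusters with PARalyzer inside PARpipe. For each cluster the authors deposited raw, unnormalized counts of reads, unique reads and conversions, with its position, sequence, annotation class and gene name, and the smallest cluster held 5 reads. The 17 RNA-seq samples were not analysed here, and values of some genes in the lists are not reported here.

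Clusters were selected by gene name and their counts summed per gene. Genes were compared as ratios of reads per cluster read of the library, with exact Clopper-Pearson 95% intervals, where both libraries together held 50 reads or more. Beyond 2-fold counted as a call, and a gene without a cluster was set to the floor of 5 reads. Shares carry Wilson 95% intervals. No p-values were computed. Exons, introns and stop codons came from the canonical transcripts of GENCODE v44 on GRCh37, and splice acceptors from all its transcripts. Every USP cluster sequence was found in that genome, and the 4, 6, 2 and 5 clusters that match several places held 0.168%, 0.259%, 0.0930% and 0.463% of the USP reads in the 4 libraries. Depth per library is given with the results and sets the width of the intervals.

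Genes were named by rule: the 6 with the most clusters, the 6 with the most 3′UTR reads, the 5 highest and 5 lowest cytoplasmic ratios, the 3 highest and 3 lowest fraction ratios per line, all genes with a 5′UTR cluster, the 6 sites in all libraries with the most reads, and up to 4 genes per role group. Genes singled out beyond this were chosen after their values were seen. The members follow from their names, but the family was chosen as a subject, and the role groups and lists were drawn up, with earlier results of these data known. Alternatives were a minimum of 10 reads or 2 conversion locations per cluster, unique reads, leaving out the top cluster, centring on all genes, a gene minimum of 100 reads, a 10 nt overlap, read weighting and other motif definitions. Leaving out the most covered site of each USP gene from both libraries, and counting the stop codon class as 3′UTR, were added after seeing the data. Fold calls, intervals and the motif search were tested on simulated data. Python 3.11.15, numpy 2.4.6, pandas 2.3.3, scipy 1.17.1, matplotlib 3.10.9 and samtools 1.23.1 were used.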

Additional observations from a re-analysis of the deposited data

Results flagged for a closer look

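The ratio of cytoplasmic to nuclear reads lay on opposite sides of 1 in the 2 lines, with counting intervals wholly above or below 1, for 3 USP genes. The differences between the lines were not tested, since each condition was 1 library. The share of all genes that meet both conditions was not counted, so the 3 cannot be set against a background. USP21 had a ratio of 0.122 in parental and 3.02 in KRT19 KO cells, and 766 of its 848 reads in the KRT19 KO cytoplasm lay in the 3′UTR site described above, where the parental cytoplasm had no cluster. USP36 had a ratio of 1.20 in parental and 0.596 in KRT19 KO cells, with its best covered 3′UTR site called in the parental cytoplasm and not in the KRT19 KO one. Without its most covered site the parental ratio was 0.884 (0.744 to 1.05). USP45 had a ratio of 0.509 in parental and 1.22 in KRT19 KO cells, and its 3′UTR site with 125 reads was called in the KRT19 KO cytoplasm only. Without that site the ratio in KRT19 KO cells was 0.792 (0.643 to 0.977), on the same side of 1 as in parental cells. Without its 3′UTR site the ratio of USP21 was 1.27 (0.717 to 2.34) in the parental line and 0.740 (0.522 to 1.05) in the KRT19 KO line, so none of the 3 genes then met both conditions.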

How the results depend on the processing

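Of 74 planned values under other settings, 47 stayed within 1.5 times the reported count or within the reported interval and 27 did not, and of 12 values under settings added after seeing the data 8 did and 4 did not. The shares of all genes called under these settings are not given here, so the gene counts below have no background. With clusters of at least 2 conversion locations, 8 of 33 genes were higher in the cytoplasm of KRT19 KO cells in place of 4 of 35. In the nucleus 6 of 30 were higher and 5 lower, in place of 2 and 3 of 36. With the same setting, 5 of 32 genes were higher in cytoplasm than nucleus in parental cells in place of 2 of 37. In KRT19 KO cells 7 of 35 were, in place of 3 of 36. There 3′UTR clusters made up 11.5% and 17.6% of the parental and KRT19 KO cytoplasmic ones. Without the top cluster of each gene in each library, 5 of 35 genes were higher in the KRT19 KO nucleus, and 1 of 34 was higher in cytoplasm than nucleus of KRT19 KO cells. Without the most covered site of each USP gene, 2 of 33 genes were higher in the KRT19 KO cytoplasm and 1 of 35 was lower in the KRT19 KO nucleus. In each line 1 of 35 was then higher in cytoplasm than nucleus. In unique reads 5 of 32 genes were lower in parental cytoplasm than nucleus, in place of 12 of 37. Centred on all genes, 7 of 37 were in parental and 7 of 36 in KRT19 KO cells, in place of 12 and 17. With clusters of at least 10 reads, the 3′UTR share in the KRT19 KO cytoplasm was 18.1%, the motif share was 33.2%, 35.8% and 33.3% in the cytoplasms and the parental nucleus, and 29 sites in place of 47 were in all libraries. Weighted by reads, the 3′UTR share was 17.1%, 29.0% and 7.25% in these libraries. The shorter motif CCC was in 36.2%, 38.0%, 39.6% and 39.7% of USP clusters, and within 3′UTR clusters the motif share was 21.1%, 34.9% and 35.5% in the parental cytoplasm and the parental and KRT19 KO nuclei. The causes were not tested. No paired analysis was possible because each PAR-CLIP condition is 1 library. With a median of 10 or 11 reads per cluster and a minimum of 5, a site missing from a library was not detectable at this depth, which does not show that it is absent.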

Other observations

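Intronic USP clusters that end within 50 nt upstream of a splice acceptor were counted, with the acceptors of all annotated transcripts on the same strand. They numbered 8, 9, 13 and 16 in the parental cytoplasm, KRT19 KO cytoplasm, parental nucleus and KRT19 KO nucleus. These were 1.06%, 1.60%, 1.60% and 1.97% of the intronic clusters. Over the intronic clusters of all genes the shares were 1.09%, 1.19%, 1.68% and 1.90%, so the USP genes were close to the background in each library. The acceptor cluster with the most reads was in USP34, 20 nt from the acceptor, and was called in all 4 libraries with 24, 25, 38 and 32 reads.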
